A study of Mus musculus with 15 samples.

Results

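Collagen, laminin and integrin genes encode the fibres and sheets that cells rest on and the receptors with which cells hold them. The genes described here were all those whose name on the array fits the naming pattern of collagen chains, laminin chains, or integrin α and β subunits. They were 84 gene names of 27376 on the array, each read by 1 probe, the one with the highest mean signal over the 15 arrays. By class they were 43 collagen chains, 11 laminin chains, 17 integrin α chains, 9 integrin β chains and 4 genes that share the prefix without being integrin chains (Itgb1bp1, Itgb1bp2, Itgb3bp and Itgbl1). The naming pattern uses no measured change, though it was chosen with earlier results of these data known.

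Collagens are trimers of chains. Fibrillar collagens such as types I, III and V form the fibres of connective tissue, whereas type IV forms the network of basement membranes, the thin sheets under epithelia. Laminins are trimers of an α, a β and a γ chain that assemble beside that network, and integrins are membrane receptors of an α and a β chain that bind these ligands and link them to actin. In liver, hepatocytes face a loose matrix without a continuous basement membrane, much of the fibrillar collagen comes from stellate cells and portal fibroblasts, and bile ducts lie on a laminin-containing basement membrane.

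RNA was measured on 15 Agilent arrays with 1 colour. Expandable hepatocytes from 3 mice were kept for 21 days in a medium for expansion (eHep, 7 arrays) or in a medium for differentiation (mHep, 7 arrays), and hepatocytes freshly isolated from C57B6 mice by collagenase perfusion gave 1 array (primary). Mice 129S1-No1 and 129S1-No2 were of strain 129S1 and mouse C57B6-No1 of strain C57B6. The mice 129S1-No1 and C57B6-No1 each gave 3 eHep and 3 mHep arrays, and 129S1-No2 gave 1 of each. The labels name no genetic change, and they do not spell out mHep, which was taken as the cells in differentiation medium. The mHep array of 129S1-No2 has a source name that reads eHep, and its title decided its group, so results over mice are also given without that mouse. Nothing in the labels says that the arrays of a mouse came from separate cultures, so p-values within a mouse measure only the spread between arrays of a mouse and medium, which may be technical. That spread was pooled over 129S1-No1 and C57B6-No1, so the p-values of each of these mice also rest on the arrays of the other.

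The share of all probes well above background was 48.8% to 61.9% per cultured array and 36.3% on the primary array, which was also the dimmest. As a check of the cell type, all 13 hepatocyte markers on the array were detected in primary cells, 10 to 12 on each mHep array and 6 to 9 on each eHep array, and 6 of the 11 tested rose from eHep to mHep over mice. Against primary cells all 13 were lower in eHep and 4 in mHep. Of 7 biliary markers 2 were higher in eHep and 3 in mHep than in primary cells, and of 2 mesothelial markers 1 was higher in each. Of 4 endothelial, 8 macrophage and 6 other leukocyte markers 2, 4 and 1 were lower in eHep and in mHep than in primary cells. Of 14 stellate cell and fibroblast markers 5 were dark on all arrays (Des, Pdgfra, Pdgfrb, Thy1 and Lum), Acta2 was on all 15, and Dcn was on 3 eHep arrays, 7 mHep arrays and the primary array. Of the rest, 6 were on some cultured arrays and not on the primary array, and Colec11 was on 4 eHep arrays, 4 mHep arrays and the primary array. Of 10 endothelial markers 3 were dark on all arrays (Pecam1, Erg and Tie1), Stab2 was on all 15, Clec4g was on 6 eHep arrays, 1 mHep array and the primary array, and 4 in all were detected in primary cells. The part of other cell types in the results on matrix genes was not tested. In bulk RNA of this kind, fewer cells of a type and less RNA per cell cannot be told apart.

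Of the 84 genes, 68 were well above background on at least 1 array and 16 on none. Detection was broader in culture: 42 to 53 of the genes per eHep array, 43 to 51 per mHep array and 21 on the primary array. These counts rest on the 1 probe that stood for each gene. On all 15 arrays 16 genes were detected, and on all 14 cultured arrays 31. Among those 31, 15 were not detected in primary cells, among them Col4a5, Col5a1, Col7a1, Col9a2, Col16a1, Col20a1, Lama4, Lamb2, Lamb3, Itga6, Itgav and Itgb4. Col4a1 and Itgb3 were also among the 15, but a second probe of each was well above background in primary cells. Of all 63 genes dark there by their probe, 5 had another probe that was detected (Col4a1, Itga4, Itgb3, Itgb6 and Lama3). Col13a1, a transmembrane collagen, was the 1 gene detected in primary cells and on no cultured array. A further 32 were detected on some cultured arrays and not in primary cells. Because fewer probes of any kind were above background on the primary array, a gene missing there has an upper bound and not a level.

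**Figure D1:**
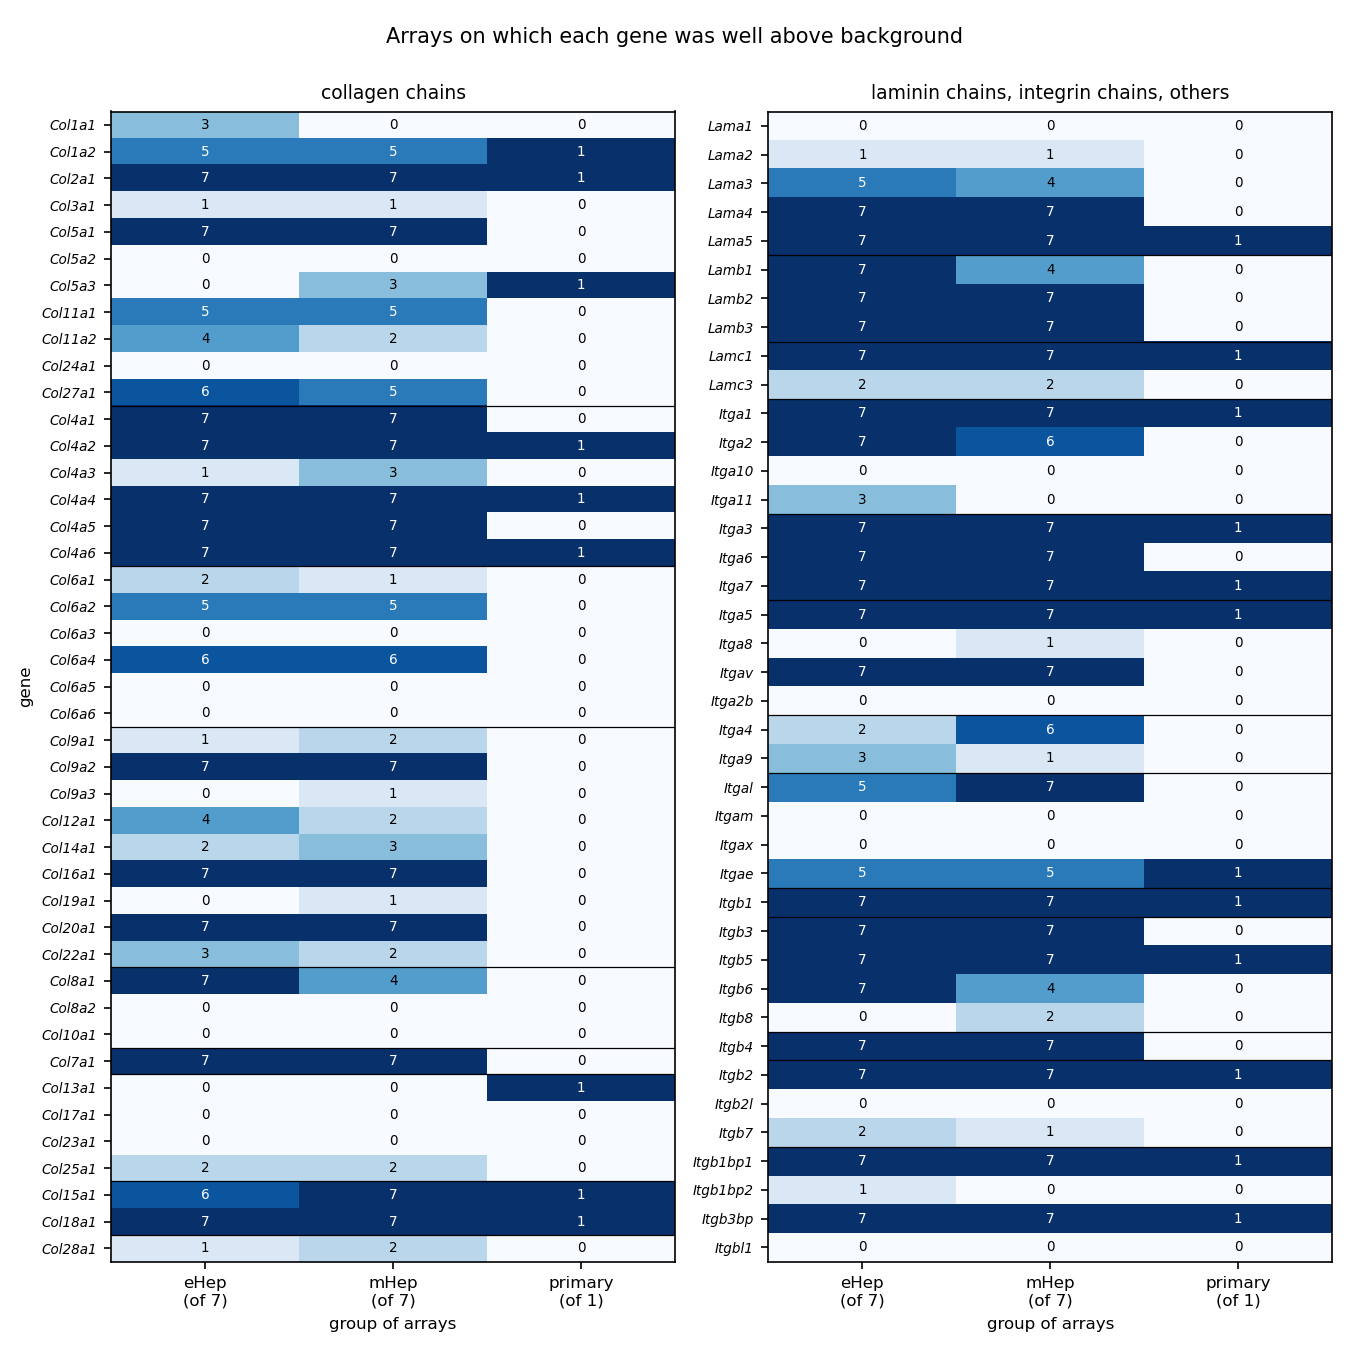
Number of arrays on which each gene shown was well above background by the probe that stood for it, in eHep (of 7 arrays), mHep (of 7) and primary hepatocytes (of 1), with rows grouped by the type of chain. Lamb2, Lamb3, Itga6 and Itgb4 reach 7 and 7 in culture and 0 in primary cells, whereas Col5a3 and Col13a1 are detected in primary cells and on 0 eHep arrays.

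Of the 6 type IV collagen chains 5 were on all 14 cultured arrays, as were 6 of 11 laminin chains, 3 of 9 fibril-associated chains, 2 of 11 fibrillar chains and 0 of 6 type VI chains. All 3 laminin-binding integrin α chains, Itga3, Itga6 and Itga7, were on every cultured array, and so were Itgb1, the partner of most α chains, and Itgb4, the partner of Itga6 in hemidesmosomes. The leukocyte chains Itgam and Itgax, the platelet chain Itga2b, the embryonic laminin chain Lama1 and the fibrillar chain Col5a2 were dark on all 15 arrays.

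A level is the log2 signal minus its 75th percentile on that array, so that 0 equals the percentile. A gene is said to have risen or fallen, or to be higher or lower, where its limma p adjusted over all genes tested was under 0.05. Within a mouse, for a difference between mice and against primary cells, a log2 difference of at least 1 was required as well. Of the 84 genes, 43 passed the filter on dim probes for mHep against eHep and 46 that for primary cells, and since a gene bright only in the group where it is high had to differ, counts among them are descriptions.

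Over the 3 mice 0 of 43 genes rose from eHep to mHep and 0 fell in limma, beside 1.41% of all 14586 genes tested that rose and 0.452% that fell. At an unadjusted p under 0.05, 6 of the 43 differed in limma, all lower in mHep (Col4a4, Col7a1, Col8a1, Col12a1, Lamb1 and Itgb6), beside 14.9% of all genes. The median log2 difference was -0.32 for the 43 genes and -0.09 for all genes. In all 3 mice, 12 genes (27.9%) had a lower mean in mHep, beside 23.2% of all genes, and 1 (2.33%), Itga4, a higher mean, beside 14.7%. Col8a1, Col11a2 and Col12a1 passed the filter only through eHep arrays and Itga4 only through mHep arrays. The direction of these genes was thus largely built into the testing. With all 7 mHep and 7 eHep arrays side by side, Itga2 was the 1 gene that lay wholly lower in mHep, beside 2.86% of all genes, and 0 lay wholly higher, beside 2.79%. Without 129S1-No2, the mouse whose mHep array has the other source name, 4 genes fell on the log2 scale: Col7a1 by 2.66, Itgb4 by 3.06, Itgb6 by 3.65 and Lamb1 by 3.75 (limma adjusted p 0.0436, 0.0412, 0.0107 and 0.0234), beside 1.62% of all genes that fell, and 0 rose, beside 2.85%. Without 129S1-No1, Col12a1 and Lamb1 fell, beside 1.37%, and Lama4 rose, beside 4.41%. Without C57B6-No1, Itgb6 and Lamb1 fell, beside 1.12%, and 0 rose, beside 2.41%.

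Within single mice more genes passed. In 129S1-No1, 19 of 43 genes fell from eHep to mHep, beside 20.5% of all genes, and 1 rose, Itgb3, beside 14.7%. In C57B6-No1, 15 fell, beside 9.66%, and 1 rose, Lama4, beside 10.5%. The share that fell was above that of all genes in both mice, and the share that rose was below it. In 129S1-No1, genes dark in both media also read lower in mHep. Col17a1, Col24a1 and Itga10 differed by -1.06, -1.08 and -1.06, Itgax by -0.21 and Col5a2 by -2.32. The 75th percentile of the arrays of this mouse was 7.96 to 8.50 in eHep and 9.29 to 9.51 in mHep. A fall near 1 in 129S1-No1 is thus about the size read for dark genes. The mice had 10 fallen genes in common, 52.6% of those in 129S1-No1 and 66.7% of those in C57B6-No1: Col4a1, Col4a2, Col4a5, Col7a1, Col8a1, Lamb1, Itga3, Itga5, Itgb4 and Itgb6. Among these Col8a1 passed the filter only through eHep arrays. In 129S1-No1 all eHep arrays lay on 1 slide and all mHep arrays on another, so slide and medium cannot be told apart within that mouse. In C57B6-No1 the arrays of each medium lay on more than 1 slide and came from 2 scans. Through the pooled spread this enters the p-values of both mice. With slide as a term in the fit, estimated through the C57B6-No1 arrays on the same slides, 13 genes passed in 129S1-No1 and 9 in C57B6-No1. Of the 10 genes in common, 7 then passed in 129S1-No1 and 2, Col7a1 and Itgb6, in C57B6-No1, so 2 passed in both. With each array left out in turn, 10 of the 20 calls in 129S1-No1 and 6 of the 16 in C57B6-No1 (Col4a2, Col7a1, Col12a1, Itga3, Itgb6 and Lama4) were kept throughout. With normexp background correction 10 of 20 and 4 of 16 were kept. A call is said below to have ended where the adjusted p or the log2 difference no longer passed, and normexp stands for that correction. Arrays are named by medium, mouse and number, 1 for 129S1-No1 and 2 for C57B6-No1. With slide as a term, the change in C57B6-No1 equals that between eHep2-3 and mHep2-3, its only arrays of both media on a shared slide. The slide shift taken from the 129S1-No1 change is that between eHep2-1 and eHep2-2. Values with slide as a term thus rest on single pairs of arrays, so a call kept or ended there does not tell slide from medium. The counts that passed with that term stand without the share of all genes.

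The change from eHep to mHep differed between the mice for 12 genes. It was lower in 129S1-No1 than in C57B6-No1 for 8 (Itga2, Itgb3bp, Itgb4, Itgb6, Lama4, Lamb1, Lamb2 and Lamb3), beside 10.3% of all genes, and higher for 4 (Col7a1, Col20a1, Col27a1 and Itga1), beside 5.82%. Of the 7 laminins tested 4 were among the 8, and of the 18 collagens tested 0 were among them and 3 among the 4. With slide as a term 6 of the 12 were kept (Col7a1, Col20a1, Itga2, Itgb4, Lama4 and Lamb3), so 2 of the 4 laminins, Lamb1 and Lamb2, were not. With normexp background correction 4 were kept (Col7a1, Itgb4, Lama4 and Lamb2), and Itgb6 and Lamb1 turned to 0.78 and 0.015. With each array left out in turn 6 were kept throughout (Col27a1, Itga2, Itgb3bp, Itgb4, Lamb1 and Lamb3). Mouse and strain cannot be told apart here, since each strain has 1 mouse in this comparison.

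**Figure D2:**
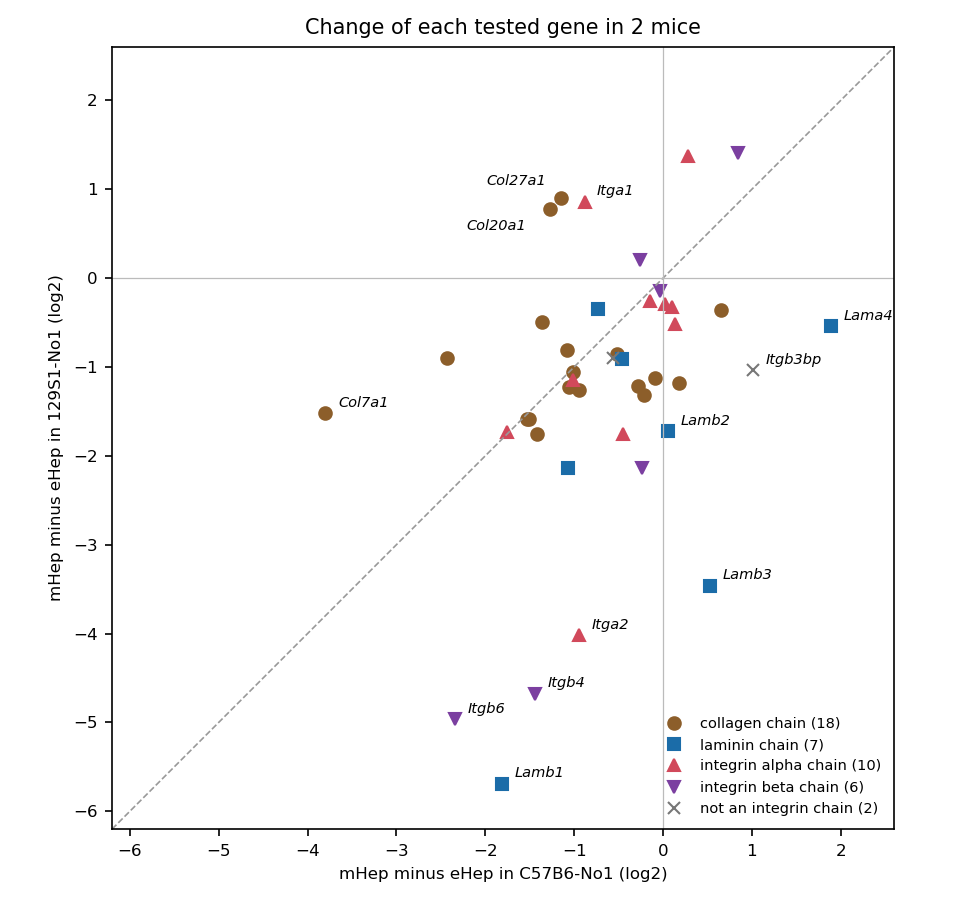
Mean log2 difference (mHep minus eHep, 3 arrays per medium) of each of the 43 tested genes in C57B6-No1 (x axis) and in 129S1-No1 (y axis), with equal change as a dashed line. The 12 named genes are those whose change differed between the mice, with Lamb1 at -1.81 and -5.69 and Lama4 at 1.89 and -0.54.

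Against primary cells, 9 of 46 genes were higher in eHep, beside 5.62% of all 15167 genes tested, and 3 were lower, beside 9.38%. In mHep 5 were higher, beside 4% of all genes, and 2 lower, beside 5.98%. These comparisons share the 1 primary array, and their values are given side by side for that reason. For it limma used the spread among the means of the cultured mice. That array is from C57B6 mice and the earlier of 2 scans. Most cultured arrays (10) are of the later scan, and 129S1-No1 and 129S1-No2 are of another strain. Scan and strain are thus mixed into each difference from primary cells. The 16 genes dark on all arrays also read lower in eHep than in primary cells, by -2.89 (Itgbl1) to -1.70 (Col5a2). In mHep Itgbl1 differed by -3.02. The 75th percentile was 6.29 on the primary array and 7.96 to 9.69 on cultured arrays. A lower reading of that size in culture is thus about what was read for dark genes. Col5a3 and Col13a1 passed the filter only through the primary array. Col4a1, Col16a1, Itga6, Itgav, Itgb4 and Lamb2, dark on it, passed only through cultured arrays. The direction of these genes was thus largely built into the testing. Without C57B6-No1, 2 genes passed in eHep (Col5a3, beside 2.08% of all genes that were lower, and Itga6, beside 0.851% that were higher) and 0 in mHep, beside 0.481% and 0.218%. The genes named below then had limma adjusted p of 0.0566 to 0.209 in eHep and 0.062 to 0.112 in mHep where their call ended. Without 129S1-No2, 10 genes passed in eHep, 7 higher, beside 4.81% of all genes, and 3 lower, beside 7.73%. In mHep 8 then passed, 5 higher, beside 2.89%, and 3 lower, beside 4.89%.

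Col4a1 and Col4a2, the chains of the common type IV trimer, fell in both of the mice with replicate arrays. Col4a1 (probe at chr8:11199009-11199068, mm9) read 1.01, 0.75 and 1.28 on the eHep arrays of 129S1-No1, 2.26, 2.58 and 2.98 on those of C57B6-No1 and 2.16 in 129S1-No2. The mHep arrays read 0.07, -0.10 and -0.09, then 1.57, 1.26 and 1.94, and 2.06. Within each of the mice with 3 arrays per medium every eHep array was above every mHep array, while over all mice the media overlapped because 129S1-No1 was low in both. Col4a1 fell 2.08-fold in 129S1-No1 (log2 -1.06 ± 0.25, SE, adjusted p 0.00693 by limma) and 2.02-fold in C57B6-No1 (log2 -1.02 ± 0.25, SE, adjusted p 0.0121), and differed by -0.10 in 129S1-No2. By this probe it was not well above background in primary cells, so eHep was at least 14.2-fold higher (limma adjusted p 0.0473). Its second probe was detected on all 15 arrays, at 0.60 in primary cells, 0.82 to 2.27 in eHep and -0.65 to 1.35 in mHep, a difference of 0.83 for eHep, so the size of the difference from primary cells is uncertain. For Col4a1 the call in 129S1-No1 ended with normexp and 1 more scaling, filter or moderation setting and without eHep1-3 (log2 -0.92, limma adjusted p 0.0344). Col4a1 also lost its call in C57B6-No1 with normexp, slide as a term (log2 -1.04, limma adjusted p 0.0643) and 3 more scaling, filter or moderation settings and without eHep2-3 or mHep2-2 (log2 -0.85 to -0.83, limma adjusted p 0.0333 to 0.048). Col4a1 also lost its call in eHep against primary cells with normexp and the mean of all probes and without 129S1-No2 (log2 3.71, limma adjusted p 0.0887).

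Col4a2, which overlaps the start of Col4a1 head to head on chromosome 8, fell 3.01-fold in 129S1-No1 (log2 -1.59 ± 0.27, SE, adjusted p 0.00118 by limma) and 2.84-fold in C57B6-No1 (log2 -1.51 ± 0.27, SE, adjusted p 0.00227), with 0.28 in 129S1-No2. Its eHep levels ran from 1.07 to 2.58 and its mHep levels from -0.46 to 1.37. The primary array, at 0.50, lay inside the mHep range and below every eHep array, and neither medium passed against it (limma adjusted p 0.439 and 0.932). Col4a5, which pairs with other type IV chains in specialised basement membranes, fell by 1.23 and 1.06 and had the opposite sign, 0.48, in 129S1-No2. For Col4a2 the call in C57B6-No1 ended with slide as a term (log2 -1.20, limma adjusted p 0.125). For Col4a5 the call in 129S1-No1 ended with normexp, slide as a term (log2 -1.08, limma adjusted p 0.146) and 1 more scaling, filter or moderation setting and without eHep1-3 or mHep1-1 (log2 -1.11 to -1.03, limma adjusted p 0.0566 to 0.058). Col4a5 also lost its call in C57B6-No1 with normexp, slide as a term (log2 -1.14, limma adjusted p 0.11) and 3 more scaling, filter or moderation settings and without any 1 of 7 arrays (log2 -1.06 to -0.76, limma adjusted p 0.0504 to 0.145).

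Col7a1, which forms the anchoring fibrils of epithelial basement membranes, had the largest fall among the collagens of C57B6-No1. Its eHep levels ran from -1.28 over a median of 0.37 to 2.27, and its mHep levels from -2.99 over -1.43 to -0.77. In C57B6-No1 the eHep arrays read 2.07, 2.27 and 1.68 and the mHep arrays -0.77, -1.61 and -2.99, with no overlap. The fall was 13.9-fold there (log2 -3.80 ± 0.44, SE, adjusted p 0.000124 by limma) and 2.87-fold in 129S1-No1 (log2 -1.52 ± 0.44, SE, adjusted p 0.0171). The difference between these changes was 2.28 ± 0.62 (limma adjusted p 0.0309). Col8a1, a short-chain collagen known from vessel walls, fell at least 2.88-fold in 129S1-No1 and at least 2.9-fold in C57B6-No1, as 1 mHep array of each was dark (limma adjusted p 0.0229 and 0.0401). Col8a1 passed the filter only through its eHep arrays, where it is high, so these p-values add no support. For Col7a1 the call in 129S1-No1 ended with normexp and without eHep1-3 (log2 -1.40, limma adjusted p 0.0627). Col7a1 also lost its call for the difference between mice with 1 more scaling, filter or moderation setting and without any 1 of 9 arrays (log2 2.15 to 2.40, limma adjusted p 0.0508 to 0.0729). For Col8a1 the call in 129S1-No1 ended with normexp and without any 1 of 5 arrays (log2 -1.61 to -1.34, limma adjusted p 0.0544 to 0.0851). Col8a1 also lost its call in C57B6-No1 with normexp, the mean of all probes, slide as a term (log2 -1.09, limma adjusted p 0.104) and 1 more scaling, filter or moderation setting and without any 1 of 9 arrays (log2 -1.70 to -1.15, limma adjusted p 0.0511 to 0.143).

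**Figure D3:**
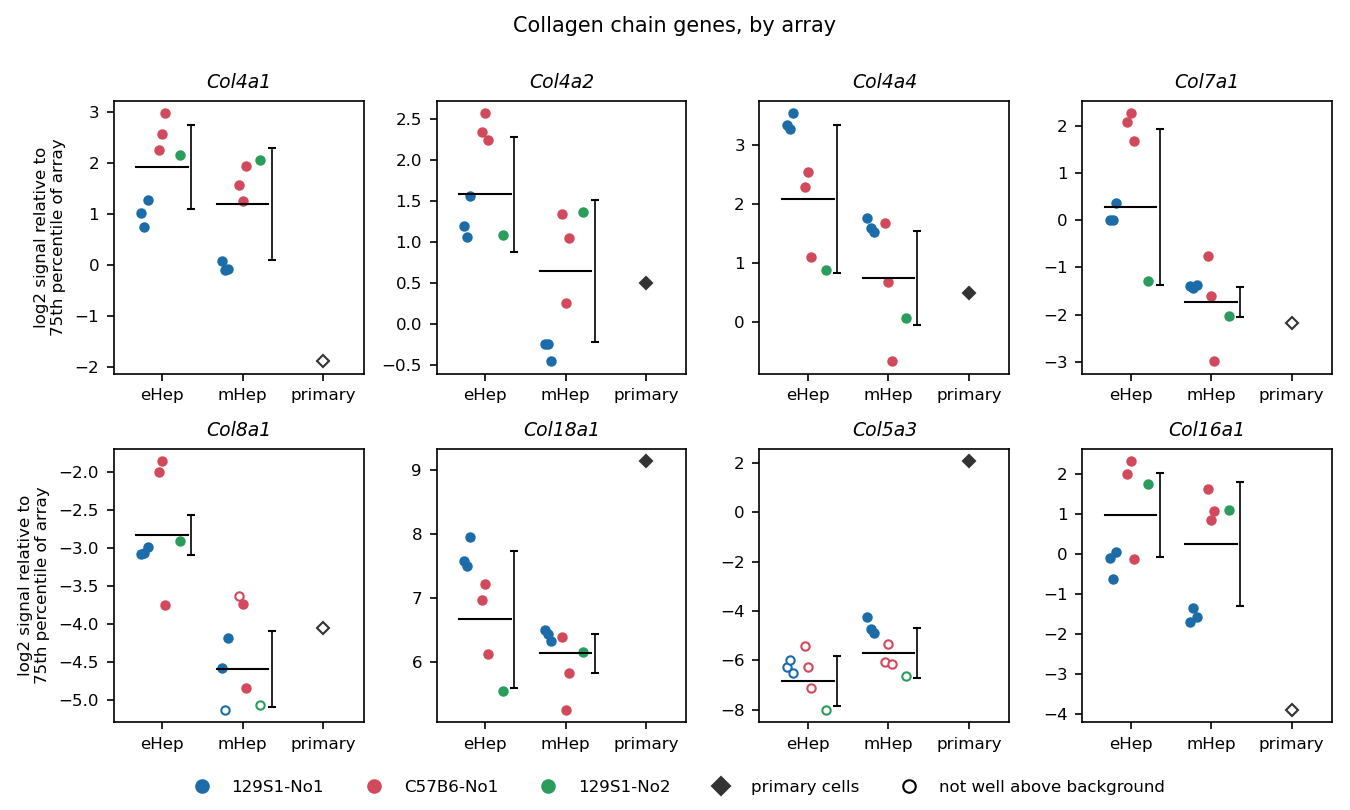
Levels of 8 collagen genes on each array (log2 signal minus the array's 75th percentile). Points are arrays coloured by mouse, the diamond is the primary array, open symbols are readings not well above background, black lines are means of the 3 mouse means and bars their SD. Col5a3 stands at 2.08 in primary cells and is dark on all 7 eHep arrays, and Col4a1, by the probe shown, is dark in primary cells and detected on all 14 cultured arrays.

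Of the 11 fibrillar chains 9 were detected on at least 1 cultured array, 2 of them on all 14 (Col2a1 and Col5a1). In primary cells 3 were detected, Col1a2, Col2a1 and Col5a3. Col27a1 was on 11 cultured arrays and Col11a1 on 10. Col1a1, the main chain of type I collagen, was detected on 3 arrays in eHep, 0 in mHep and not in primary cells. Col3a1 was detected on 1 eHep and 1 mHep array. Of the type VI chains, which are not fibrillar, Col6a1 was detected on 2 and 1 and Col6a2 on 5 and 5. Col1a1, Col3a1, Col6a1 and Col6a2 did not pass the filter. Col1a2 was detected on 5 eHep arrays, 5 mHep arrays and the primary array, at -0.86 there, and did not pass against primary cells (limma adjusted p 0.134 and 0.124). Col5a1, a chain that starts the assembly of collagen fibres, was on every cultured array. It fell 2.57-fold in C57B6-No1 (log2 -1.36 ± 0.35, SE, adjusted p 0.0137 by limma), with -0.50 in 129S1-No1 and 0.98 in 129S1-No2. A second probe of Col5a1, detected on 12 cultured arrays, gave 0.17 in C57B6-No1, so the probes disagree in direction there. For Col5a1 the call in C57B6-No1 ended with normexp, the mean of all probes and slide as a term (log2 -0.63, limma adjusted p 0.447) and without eHep2-1, eHep2-2 or mHep2-2 (log2 -1.27 to -1.12, limma adjusted p 0.0524 to 0.0565). Beside these readings, the log2 of the mean signal of the stellate cell and fibroblast markers was 0.12 to 1.25 in eHep, 0.32 to 1.15 in mHep and 0.51 in primary cells. Such a mean follows the brightest marker, here Acta2, with mean levels of 4.45, 4.07 and 3.71. Of the 14 markers 11 were dark in primary cells, and 7 were dark on all arrays of each medium.

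Col5a3 and Col13a1 were lower in eHep and in mHep than in primary cells, and Col15a1 was lower in eHep. Col5a3 and Col13a1 passed the filter only through the primary array, where they are high, so their p-values add no support. Col5a3, a type V chain, read 2.08 on the primary array, was dark on all 7 eHep arrays and was detected in mHep on the arrays of 129S1-No1 alone, at -4.24, -4.71 and -4.89. It was at least 122-fold lower in eHep and at least 116-fold lower in mHep (limma adjusted p 0.00375 and 0.00676), so no cultured array came near the primary array. Col13a1 read -1.79 in primary cells and was at least 8.32-fold lower in eHep and at least 8.88-fold lower in mHep (limma adjusted p 0.012 and 0.0156). Col15a1, a multiplexin of vessel basement membranes, read 0.88 in primary cells and -5.55 to -2.67 in eHep, at least 31.7-fold lower (limma adjusted p 0.0391), and did not pass in mHep (limma adjusted p 0.085). Without 129S1-No2, whose mHep array was the highest, Col15a1 was lower in mHep too (log2 -4.78, limma adjusted p 0.0245). For Col13a1 the call in eHep against primary cells ended with normexp. Col13a1 also lost its call in mHep against primary cells with normexp and dark readings raised to the limit. For Col15a1 the call in eHep against primary cells ended with the mean of all probes. Beside these, the log2 mean signal of endothelial markers was -6.31 to -3.96 in eHep, -5.85 to -4.13 in mHep and 0.69 in primary cells. That of macrophage markers was -5.42 to -1.65, -4.68 to -3.08 and 0.73, and the part of these cells in the lower collagen readings was not tested.

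Col18a1, the multiplexin that is the source of endostatin and is made by hepatocytes, ran from 5.54 over 7.22 to 7.96 in eHep and from 5.25 over 6.32 to 6.49 in mHep, with 9.14 in primary cells. The primary array was above all 14 cultured arrays, but the differences of -2.48 and -3.01 did not pass (limma adjusted p 0.103 and 0.0763). Both are about the size read against primary cells for genes dark on all arrays. Within 129S1-No1 it fell 2.4-fold from eHep to mHep (limma adjusted p 0.0111). For Col18a1 the call in 129S1-No1 ended with slide as a term (log2 -1.52, limma adjusted p 0.0839) and 3 more scaling, filter or moderation settings. Col16a1, a fibril-associated collagen, was detected on all 14 cultured arrays and was at least 8.52-fold higher in eHep than in primary cells (limma adjusted p 0.0488). For Col16a1 the call in eHep against primary cells ended with normexp, the mean of all probes and dark readings raised to the limit and without 129S1-No2 (log2 4.48, limma adjusted p 0.104). Its second probe was dark on all 14 cultured arrays. Of the fibril-associated Col20a1 and the fibrillar Col27a1, the log2 differences were 0.78 and 0.90 in 129S1-No1 and -1.27 and -1.15 in C57B6-No1, differing by 2.05 and 2.05 (limma adjusted p 0.0201 and 0.00867). For Col20a1 the call in C57B6-No1 ended with normexp and without eHep2-1 or mHep2-3 (log2 -1.10 to -0.87, limma adjusted p 0.0489 to 0.0842). Col20a1 also lost its call for the difference between mice with normexp and without eHep1-2 or mHep1-2 (log2 1.80 to 1.96, limma adjusted p 0.0512 to 0.0514). For Col27a1 the call in C57B6-No1 ended with normexp, the mean of all probes, dark readings raised to the limit and slide as a term (log2 -0.52, limma adjusted p 0.493) and without eHep2-2 (log2 -0.94, limma adjusted p 0.0604). Col27a1 also lost its call for the difference between mice with normexp, the mean of all probes and slide as a term (log2 1.03, limma adjusted p 0.381).

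Lamb1, a β chain of many basement membrane laminins, had the lowest mean difference of the 43 genes over mice, -3.24, without passing there (limma adjusted p 0.131). Its eHep arrays (probe at chr12:32012684-32014030, mm9) read -0.93, -1.13 and -0.60 in 129S1-No1, 2.71, 2.82 and 2.55 in C57B6-No1 and 0.52 in 129S1-No2. In mHep all 3 arrays of 129S1-No1 were dark, C57B6-No1 read 1.04, 0.17 and 1.46, and 129S1-No2 read -1.69. Each mouse was lower in mHep, and the media overlapped only between mice. The fall was at least 18.5-fold in 129S1-No1 (log2 -5.69 ± 0.47, SE, adjusted p 9.58e-06 by limma) and 3.5-fold in C57B6-No1 (log2 -1.81 ± 0.47, SE, adjusted p 0.0154), with -2.21 in 129S1-No2. The fitted changes differed by -3.88 ± 0.67 (limma adjusted p 0.0037), a value that rests on dark readings and was 0.015 with normexp background correction. For Lamb1 the call in C57B6-No1 ended with normexp and slide as a term (log2 -1.09, limma adjusted p 0.414) and without mHep2-2 (log2 -1.45, limma adjusted p 0.0652). Lamb1 also lost its call for the difference between mice with normexp and slide as a term (log2 -4.70, limma adjusted p 0.0538).

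Lamb3 is the β chain of the laminin of epithelial hemidesmosomes. Lamb3 read 0.10, -0.04 and 0.33 in eHep and -3.31, -3.28 and -3.40 in mHep of 129S1-No1, and -0.84, -0.67 and -1.14 against 0.42, -0.69 and -0.79 in C57B6-No1. The 129S1-No1 arrays were far apart and those of C57B6-No1 overlapped. Lamb3 fell 11-fold in 129S1-No1 (log2 -3.46 ± 0.30, SE, adjusted p 1.29e-05 by limma), with 0.53 in C57B6-No1 and 2.05 in 129S1-No2, of the same strain as 129S1-No1. The changes differed by -3.99 ± 0.43 (limma adjusted p 0.000268). For Lamb3 the call for the difference between mice ended with normexp. Lama3, its α partner, was detected on 5 eHep and 4 mHep arrays and did not pass the filter.

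**Figure D4:**
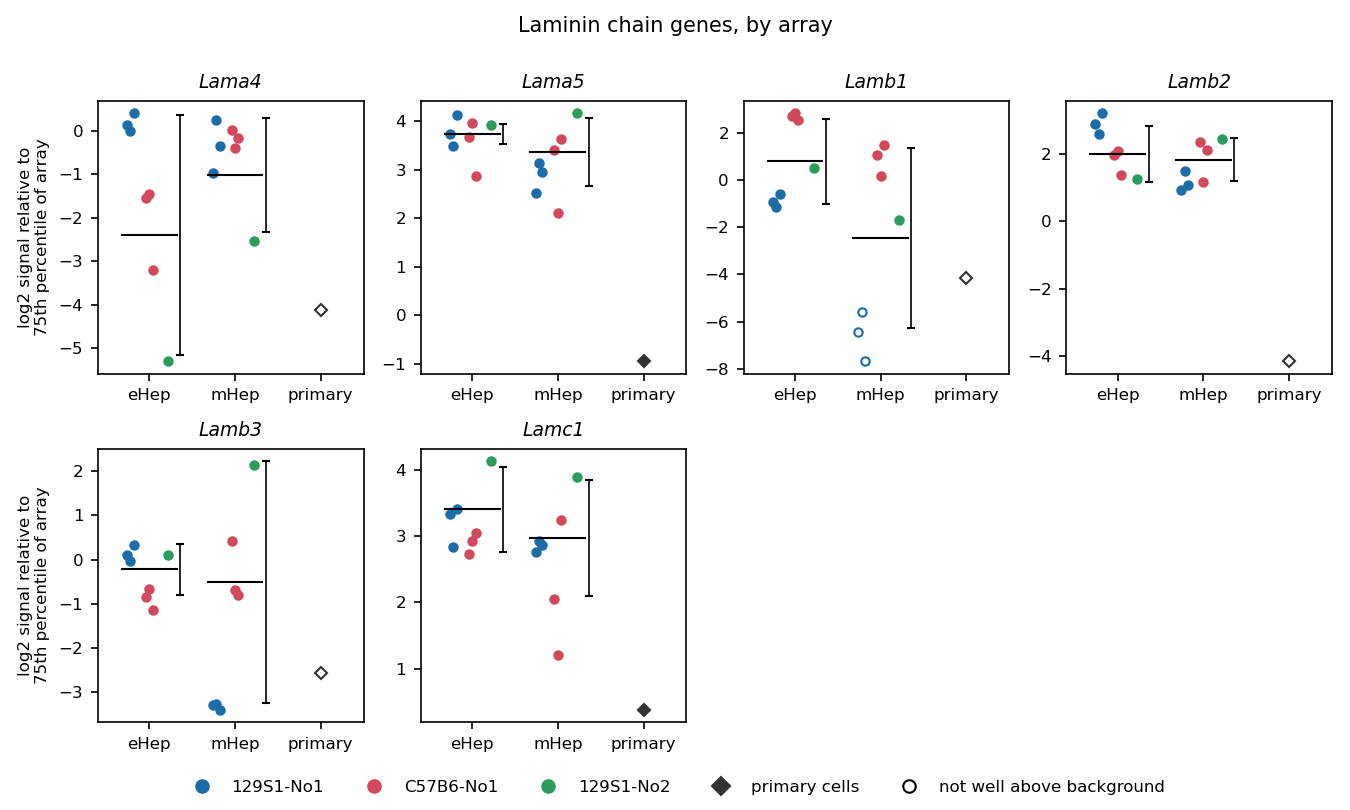
Levels of 6 laminin genes on each array (log2 signal minus the array's 75th percentile). Points are arrays coloured by mouse, the diamond is the primary array, open symbols are readings not well above background, black lines are means of the 3 mouse means and bars their SD. Lamb1 is dark on the 3 mHep arrays of 129S1-No1, and Lamb2 is detected on all 14 cultured arrays and dark in primary cells.

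Lamb2, the β chain that takes the place of Lamb1 in several mature basement membranes, fell 3.31-fold in 129S1-No1 (log2 -1.73 ± 0.34, SE, adjusted p 0.00238 by limma), with 0.05 in C57B6-No1 and 1.19 in 129S1-No2. For Lamb2 the call in 129S1-No1 ended with slide as a term (log2 -1.85, limma adjusted p 0.0682). Lamb2 also lost its call for the difference between mice with slide as a term (log2 -2.59, limma adjusted p 0.0998) and without any 1 of 5 arrays (log2 -1.79 to -1.54, limma adjusted p 0.0512 to 0.0759). Lamb2 also lost its call in mHep against primary cells with normexp. Lama4, a chain of vessel and muscle laminins, went the other way: in C57B6-No1 it read -1.55, -1.45 and -3.21 in eHep and 0.03, -0.40 and -0.16 in mHep, with every mHep array higher. It rose 3.71-fold there (log2 1.89 ± 0.45, SE, adjusted p 0.00941 by limma), with -0.54 in 129S1-No1 and 2.77 in 129S1-No2. Its change differed between the mice by -2.43 ± 0.63 (limma adjusted p 0.0257). For Lama4 the call for the difference between mice ended without any 1 of 4 arrays (log2 -2.46 to -2.12, limma adjusted p 0.0566 to 0.0668).

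Lama5 and Lamb2 were higher in eHep and in mHep than in primary cells. Lama5, the α chain of most epithelial laminins, was detected on all 15 arrays, at 2.88 to 4.13 in eHep, 2.10 to 4.17 in mHep and -0.95 in primary cells. All 14 cultured arrays were thus above the primary array, 25.8-fold in eHep and 19.9-fold in mHep (limma adjusted p 0.0068 and 0.0112). Lamb2 was at least 17.3-fold higher in eHep and at least 15.4-fold higher in mHep (limma adjusted p 0.00561 and 0.00752). Lamc1, the common γ chain, read 2.73 to 4.14 in eHep and 0.38 in primary cells and did not pass (limma adjusted p 0.0566). Beside these, the log2 mean signal of biliary markers was 5.09 to 6.28 in eHep, 4.29 to 6.78 in mHep and -0.09 in primary cells. The part of biliary cells in the laminin levels was not tested. Lama2 was detected on 1 eHep and 1 mHep array.

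Among the laminin receptors, Itgb4 and Itga3 fell in both mice with replicate arrays. Itgb4 (probe at chr11:115869557-115869616, mm9) read 4.42, 4.19 and 4.81 in eHep and -0.53, 0.18 and -0.26 in mHep of 129S1-No1. In C57B6-No1 it read 4.50, 4.80 and 3.77 against 3.32, 1.79 and 3.64, and in 129S1-No2 3.07 against 3.23. The gap was wide in 129S1-No1 and narrow in C57B6-No1. Itgb4 fell 25.5-fold (log2 -4.67 ± 0.45, SE, adjusted p 2.52e-05 by limma) and 2.71-fold (log2 -1.44 ± 0.45, SE, adjusted p 0.0367), and the changes differed by -3.23 ± 0.64 (limma adjusted p 0.00756). A second probe, detected on all 14 cultured arrays, gave -4.65 and -1.43. For Itgb4 the call in C57B6-No1 ended with normexp, the mean of all probes, slide as a term (log2 -0.13, limma adjusted p 0.921) and 1 more scaling, filter or moderation setting and without any 1 of 6 arrays (log2 -1.44 to -0.88, limma adjusted p 0.0502 to 0.123).

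Itga3, the α chain of the laminin receptor α3β1, fell 3.33-fold in 129S1-No1 (log2 -1.73 ± 0.31, SE, adjusted p 0.00135 by limma) and 3.38-fold in C57B6-No1 (log2 -1.76 ± 0.31, SE, adjusted p 0.00173), with 0.50 in 129S1-No2. For Itga3 the call in 129S1-No1 ended with slide as a term (log2 -1.93, limma adjusted p 0.0596). Itga3 also lost its call in C57B6-No1 with slide as a term (log2 -1.48, limma adjusted p 0.0955). Itga6, the partner of Itgb4, stayed between 1.71 and 2.53 in eHep and between 1.07 and 2.99 in mHep, with -0.29 and 0.03 in 129S1-No1 and C57B6-No1. Against primary cells, where Itga6 was dark, it was at least 20.1-fold higher in eHep and at least 18.9-fold higher in mHep (limma adjusted p 0.0027 and 0.00329). Itgb4, dark in primary cells, was at least 62-fold higher in eHep (limma adjusted p 0.0337), and Itga3, detected there at 0.01, was 10.5-fold higher (limma adjusted p 0.048). For Itgb4 the call in eHep against primary cells ended with the mean of all probes. For Itga3 the call in eHep against primary cells ended with the mean of all probes and without 129S1-No1 (log2 3.35, limma adjusted p 0.0882). In mHep they did not pass (limma adjusted p 0.125 and 0.142).

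**Figure D5:**
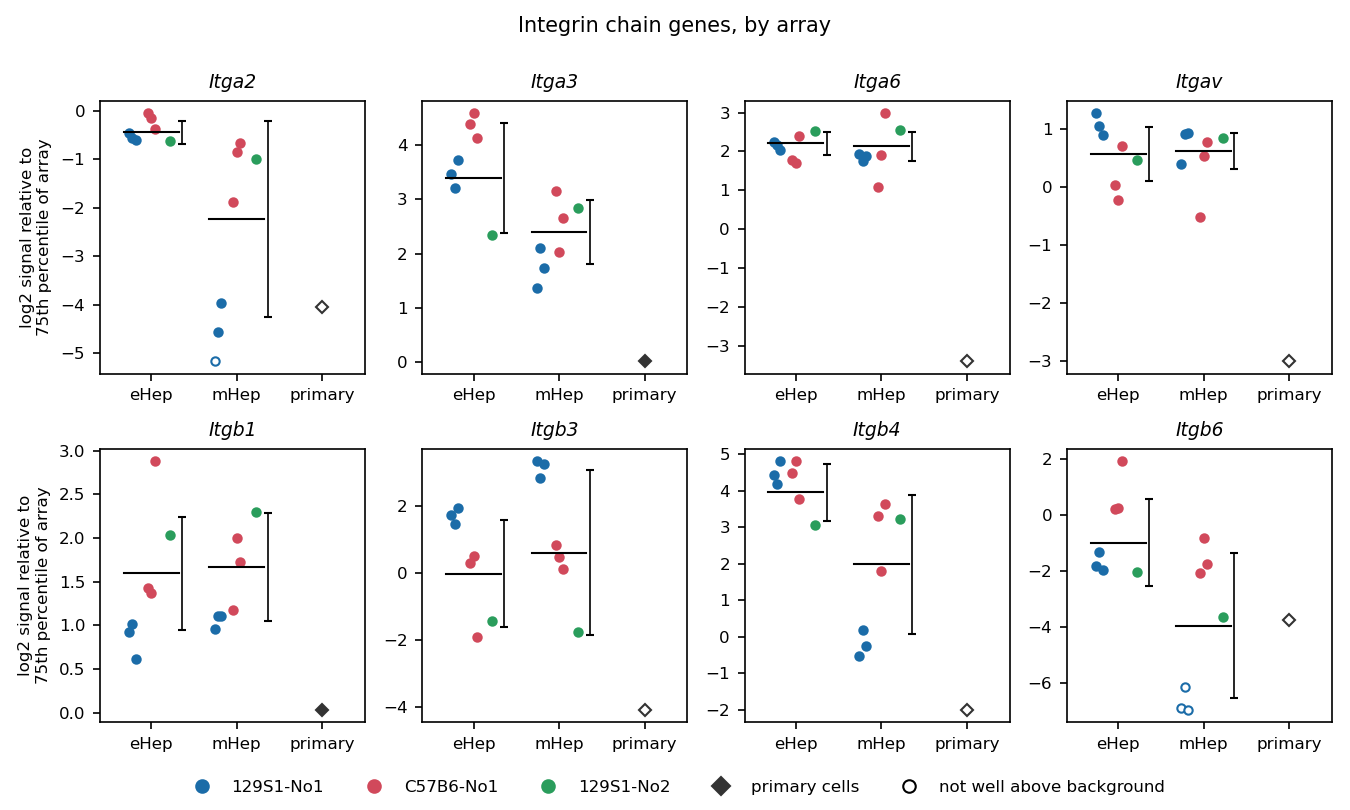
Levels of integrin genes on each array (log2 signal minus the array's 75th percentile). Points are arrays coloured by mouse, the diamond is the primary array, open symbols are readings not well above background, black lines are means of the 3 mouse means and bars their SD. Itgb6 is dark on the 3 mHep arrays of 129S1-No1, and Itga6 is dark in primary cells and detected on all 14 cultured arrays.

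Of the collagen receptors, Itga2 read -0.46, -0.57 and -0.60 in eHep of 129S1-No1, -0.05, -0.15 and -0.37 in C57B6-No1 and -0.62 in 129S1-No2. In mHep it read -5.17, -4.56 and -3.96, then -1.88, -0.85 and -0.67, and the first of these was dark, while 129S1-No2 differed by -0.38. All eHep arrays were above all mHep arrays, narrowly outside 129S1-No1. The fall was at least 15.1-fold in 129S1-No1 (log2 -4.02 ± 0.35, SE, adjusted p 1.38e-05 by limma), with -0.94 in C57B6-No1 (adjusted p 0.0731). The changes differed by -3.08 ± 0.50 (limma adjusted p 0.00266). Itga1, its neighbour on chromosome 13, had differences of 0.86 in 129S1-No1 and -0.88 in C57B6-No1, neither of which passed, though they differed by 1.74 ± 0.49 (limma adjusted p 0.0343). For Itga2 the call for the difference between mice ended with normexp. For Itga1 the call for the difference between mice ended with normexp, slide as a term (log2 1.38, limma adjusted p 0.251) and 1 more scaling, filter or moderation setting and without any 1 of 9 arrays (log2 1.63 to 1.85, limma adjusted p 0.0572 to 0.0882).

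Of the receptors for ligands with an RGD motif, Itgb6, the epithelial αv partner that activates TGF-β, fell in both mice. It read -1.81, -1.33 and -1.96 in eHep of 129S1-No1 and was dark on the 3 mHep arrays, and it read 0.23, 0.24 and 1.92 against -2.07, -0.81 and -1.74 in C57B6-No1. No mHep array of a mouse reached that mouse's eHep arrays. The fall was at least 10.5-fold (log2 -4.96 ± 0.48, SE, adjusted p 2.43e-05 by limma) and 5.06-fold (log2 -2.34 ± 0.48, SE, adjusted p 0.00434), with -1.58 in 129S1-No2. A second probe of Itgb6, detected on all 14 cultured arrays, gave -0.10 in 129S1-No1 and -2.10 in C57B6-No1, so the probes disagree for 129S1-No1. For Itgb6 the call in 129S1-No1 ended with normexp. Itgb6 also lost its call in C57B6-No1 with normexp. Itgb6 also lost its call for the difference between mice with normexp, the mean of all probes, dark readings raised to the limit, slide as a term (log2 -1.31, limma adjusted p 0.412) and 1 more scaling, filter or moderation setting and without any 1 of 6 arrays (log2 -2.68 to -2.26, limma adjusted p 0.0528 to 0.0654). Itga5, the fibronectin receptor chain, fell by 1.15 and 1.02 (limma adjusted p 0.0199 and 0.0499), with 0.72 in 129S1-No2. For Itga5 the call in 129S1-No1 ended with normexp, slide as a term (log2 -1.27, limma adjusted p 0.115) and 1 more scaling, filter or moderation setting and without eHep1-3, mHep1-1 or mHep1-3 (log2 -1.16 to -1.04, limma adjusted p 0.0532 to 0.072). Itga5 also lost its call in C57B6-No1 with normexp, the mean of all probes, slide as a term (log2 -0.58, limma adjusted p 0.454) and 3 more scaling, filter or moderation settings and without any 1 of 10 arrays (log2 -1.02 to -0.81, limma adjusted p 0.0667 to 0.17).

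Itgb3, the vitronectin receptor chain, rose 2.66-fold in 129S1-No1 (log2 1.41 ± 0.52, SE, adjusted p 0.0457 by limma), but its second probe gave -1.13 there, and against primary cells the probes gave 4.05 and -6.57, so its direction is uncertain. The second probe was detected on all 15 arrays, at 6.45 in primary cells, above its highest cultured array at 2.42. For Itgb3 the call in 129S1-No1 ended with normexp, the mean of all probes and slide as a term (log2 1.19, limma adjusted p 0.0794) and without any 1 of 7 arrays (log2 1.29 to 1.57, limma adjusted p 0.0606 to 0.118). Itgav read -0.23 to 1.28 in eHep and -0.52 to 0.93 in mHep and was dark in primary cells. It was at least 6.45-fold higher in eHep and at least 6.69-fold higher in mHep (limma adjusted p 0.0108 and 0.0138), although the mean of its 6 probes gave -0.26 in mHep. For Itgav the call in eHep against primary cells ended with normexp and the mean of all probes. Itgav also lost its call in mHep against primary cells with normexp and the mean of all probes. Itgb1 read 0.61 to 2.88 in eHep, 0.96 to 2.30 in mHep and 0.04 in primary cells, and passed no test. Itgb5 was detected in primary cells at 5.39, above its eHep range of 3.07 to 3.99 without passing (limma adjusted p 0.0957). Itgb6 was dark there by the probe that stood for it and read -0.71 by its second probe, inside that probe's eHep range of -3.10 to 0.99. Itgb8 was detected on 2 mHep arrays of C57B6-No1.

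Of the leukocyte chains, Itgal fell by 1.75 ± 0.61 in 129S1-No1 (limma adjusted p 0.0375), with -0.45 in C57B6-No1 and 1.77 in 129S1-No2. For Itgal the call in 129S1-No1 ended with normexp and 1 more scaling, filter or moderation setting and without any 1 of 6 arrays (log2 -1.88 to -1.67, limma adjusted p 0.066 to 0.0955). Itgb2, the common leukocyte β chain, was on all 15 arrays, at -4.40 to -0.15 in eHep, -4.79 to -1.62 in mHep and -1.70 in primary cells, and passed no test. Both were lower on the 4 cultured arrays of the earlier scan than on the 10 of the later one, as were 7 of the 43 genes in all, beside 10.6% of all genes. Ptprc, the pan-leukocyte marker, was dark on all arrays but 1 in mHep. The log2 mean signal of leukocyte markers other than macrophage ones was -5.39 to 0.48 in eHep, -4.71 to 3.85 in mHep and 0.42 in primary cells. Among these markers S100a8, Lcp1 and S100a9 had the highest mean levels in mHep (1.73, 0.33 and -0.84).

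Of the genes that share the prefix, Itgb3bp, a centromere protein and nuclear receptor cofactor, fell by 1.03 ± 0.35 in 129S1-No1 (limma adjusted p 0.0336), with 1.01 in C57B6-No1. These changes differed by -2.04 (limma adjusted p 0.0196). For Itgb3bp the call in 129S1-No1 ended with normexp, the mean of all probes, slide as a term (log2 -0.88, limma adjusted p 0.288) and 1 more scaling, filter or moderation setting and without any 1 of 5 arrays (log2 -1.08 to -0.69, limma adjusted p 0.067 to 0.127). Itgb3bp also lost its call for the difference between mice with normexp, slide as a term (log2 -1.12, limma adjusted p 0.406) and 1 more scaling, filter or moderation setting. Itgb1bp1, a cytoplasmic binder of the Itgb1 tail, was on all 15 arrays, Itgb1bp2 on 1 eHep array and Itgbl1 on none.

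The upstream regions of 6 genes are shown because they belong to members that fell in both mice (Itgb6, Itga5, Col7a1 and Col8a1) or to the neighbours Itga1 and Itga2, whose differences in 129S1-No1 had opposite signs. Each is the 250 bases before the gene's start in RefSeq (GRCm38.p6), 5′ to 3′ on the gene's strand, with matches to GGGCGG and CCAAT on either strand in capitals.
Itgb6 (chr2:60722604-60722853, minus strand): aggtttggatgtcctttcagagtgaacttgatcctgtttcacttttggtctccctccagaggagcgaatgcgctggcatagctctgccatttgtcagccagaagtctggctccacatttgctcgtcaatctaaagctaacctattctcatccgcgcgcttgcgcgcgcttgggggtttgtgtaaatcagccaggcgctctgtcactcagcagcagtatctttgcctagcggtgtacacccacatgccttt
Itga5 (chr15:103366792-103367041, minus strand): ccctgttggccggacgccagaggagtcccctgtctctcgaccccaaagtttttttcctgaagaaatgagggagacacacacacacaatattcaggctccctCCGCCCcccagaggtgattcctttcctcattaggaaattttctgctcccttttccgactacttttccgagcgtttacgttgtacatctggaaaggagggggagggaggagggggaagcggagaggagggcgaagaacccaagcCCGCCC
Col7a1 (chr9:108953336-108953585, plus strand): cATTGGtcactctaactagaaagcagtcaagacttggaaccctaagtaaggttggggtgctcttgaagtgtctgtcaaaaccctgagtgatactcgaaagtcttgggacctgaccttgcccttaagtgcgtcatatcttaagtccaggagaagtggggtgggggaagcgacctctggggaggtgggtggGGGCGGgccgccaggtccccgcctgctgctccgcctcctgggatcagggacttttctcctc
Col8a1 (chr16:57754738-57754987, minus strand): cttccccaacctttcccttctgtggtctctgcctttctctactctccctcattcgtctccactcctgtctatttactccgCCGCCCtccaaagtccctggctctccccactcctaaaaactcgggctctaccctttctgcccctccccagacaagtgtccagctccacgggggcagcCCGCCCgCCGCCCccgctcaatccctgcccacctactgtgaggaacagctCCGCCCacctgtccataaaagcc
Itga1 (chr13:115101965-115102214, minus strand): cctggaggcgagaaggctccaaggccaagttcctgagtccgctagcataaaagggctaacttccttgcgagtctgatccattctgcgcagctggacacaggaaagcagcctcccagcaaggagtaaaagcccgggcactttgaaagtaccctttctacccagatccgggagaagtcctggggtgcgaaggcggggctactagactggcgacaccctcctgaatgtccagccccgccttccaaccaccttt
Itga2 (chr13:114932101-114932350, minus strand): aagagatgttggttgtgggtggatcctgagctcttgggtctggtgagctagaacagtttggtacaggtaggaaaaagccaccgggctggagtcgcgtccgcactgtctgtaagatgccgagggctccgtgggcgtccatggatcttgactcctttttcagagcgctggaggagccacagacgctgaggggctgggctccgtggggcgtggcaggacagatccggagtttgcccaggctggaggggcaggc
Col8a1 has 4 matches to GGGCGG, Itga5 2 and Col7a1 1, with 1 match to CCAAT in Col7a1, and Itgb6, Itga1 and Itga2 have 0 of either. Of 32851 promoters of that length 32.7% hold GGGCGG and 33.8% CCAAT. A match is a description of letters only.

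Genes around these chains were read from lists of the same pathway, and over mice 1.41% of all genes rose and 0.452% fell. Of 22 tested genes of collagen processing 0 rose and 1 fell over mice: Pcolce2, an enhancer of procollagen cleavage, fell 18.3-fold (log2 -4.20 ± 0.47, SE, limma adjusted p 0.0187). Of 13 other integrin ligands 1 rose and 0 fell, Vtn, the plasma protein vitronectin made by hepatocytes. It was dark on all 7 eHep arrays and at least 75.8-fold higher in mHep (limma adjusted p 0.0279). Vtn passed the filter only through its mHep arrays, so its direction was built into the testing. Of 9 basement membrane partners, 24 integrin adaptors and 10 other matrix receptors 0 rose and 0 fell. The median differences of these 5 lists were -0.23, -1.02, -0.65, -0.44 and 0.18, beside -0.09 for all genes.

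The same lists were compared with primary cells, where 5.62% of all genes were higher and 9.38% lower in eHep, and 4% and 5.98% in mHep. Against primary cells, 2 of 22 genes of collagen processing were higher and 2 lower in eHep, and 1 and 2 in mHep. Of 11 basement membrane partners 3 were higher in both media, Tinagl1, Pxdn and Nid1, and 1 was lower in eHep, Smoc1. Nid1, the nidogen that bridges laminin and type IV collagen, was higher by 5.59 in eHep and 4.94 in mHep on the log2 scale (limma adjusted p 0.00518 and 0.00876). Of 13 other ligands 4 were higher and 1 lower in eHep, and 2 and 0 in mHep. Of 24 adaptors 6 were higher in eHep and 3 in mHep, and 0 were lower in either. Flna, the actin crosslinker that binds integrin tails, was higher by 7.16 and 6.49 (limma adjusted p 0.00154 and 0.00235). Of 10 other matrix receptors 2 were higher in both media, Cd44 and the collagen receptor Ddr1. Tinagl1, Pxdn, Cd44 and Ddr1 were dark in primary cells and passed the filter only through cultured arrays. The same holds for Src, Fermt1, Parvb, Loxl2, Pcolce2, Ctgf and Fbln2 among the genes counted as higher. The direction of all these genes was thus largely built into the testing. The genes named in this comparison were chosen after their values were seen.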

How the data were processed

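Signals were read from 15 scanner files of 1-colour Agilent arrays. Per the file headers, the deposited intensity values were extracted by Agilent Feature Extraction, version 10.7.1.1 on some arrays and 10.7.3.1 on the rest, which corrected background, and probe positions are on mm9. Whether a probe lies in an exon or UTR is not given in the sources used here. The authors also deposited a value table on a log2 scale, with medians of 4.922 to 4.924 per array and a correlation of 0.972 to 0.99986 with the scanner values. How it was centred is not given in the sources used here, and it served as an alternative.

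Control spots and outlier spots were left out, and the 43379 spots of 41174 probes were averaged by probe. Of 20 missing probe readings 0 concerned the 84 genes, and 0 probes were saturated. Levels were log2 processed intensity minus each array's 75th percentile. The 84 genes had 175 probes (30 genes with 1, 54 with several), and the brightest on average stood for the gene. Probes were tested where well above background on all arrays of a medium in at least 2 mice, or in primary cells for comparisons with them. limma 3.58.1 in R 4.3.3 (data.table, version 1.17.8) was fitted to all genes with Benjamini-Hochberg adjustment: to 6 mouse means paired by mouse, to 12 arrays within mice, and to mouse means with the primary array. The labels pair the media by mouse. Deviations of same-mouse means correlated at 0.397, 0.567 and 0.538, those of different mice at most at 0.0084. These deviations were taken from the mean over the same mice, so the values for same and different mice depend on each other. All arrays of 129S1-No1 were of the later scan and those of 129S1-No2 of the earlier one. The correlations thus cannot tell mouse from scan. A fold is given as "at least" where the lower group was dark, from the lowest signal well above background per array. The number of arrays limits the precision.

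RefSeq matched 74 of the 84 probes by accession and gave promoters for 62 genes. Members and lists were chosen with earlier results of these data known. Genes were named where they passed over mice, against primary cells or for a difference between mice, or belonged to a fixed set of common chains. Col4a4, Col4a5, Col8a1, Col11a2, Col12a1, Itga4 and the genes listed by detection were chosen after their values were seen. Alternatives changed background correction, normalization, filter, probe choice, moderation, slide, scan, threshold, pairing and the arrays left out. Scan as a term, and the earlier scan alone against primary cells, were chosen after seeing the data. Scripts were checked on simulated data. The values of 1 gene are not reported here.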

Additional observations from a re-analysis of the deposited data

Results flagged for a closer look

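In 68 groups of 7 arrays (eHep or mHep, per gene), 6 arrays stood far from the others of their group. The limit used gives about 1 in 20 groups by chance for 7 independent arrays of 1 kind. Each group here holds arrays of different mice, with 129S1-No2 present by 1 array, so that rate need not hold. Array eHep3 of 129S1-No2 read -3.68 for Col4a5 and 2.02 for Itgb1bp1, each the lowest eHep array. Array eHep2-3 of C57B6-No1 read 3.07 for Itgb5, the lowest in eHep. Array mHep3 of 129S1-No2, the array with an eHep source name, read -1.94 for Col15a1 and 1.15 for Col5a1, each the highest in mHep. Array mHep2-1 of C57B6-No1 read -0.52 for Itgav, the lowest in mHep.

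For 12 genes the change from eHep to mHep differed between 129S1-No1 and C57B6-No1 by limma's test of the difference. The change in 129S1-No1 minus that in C57B6-No1 was 2.28 for Col7a1, 2.05 for Col20a1, 2.05 for Col27a1 and 1.74 for Itga1. It was -3.99 for Lamb3, -3.88 for Lamb1, -2.43 for Lama4 and -1.78 for Lamb2. It was -3.23 for Itgb4, -3.08 for Itga2, -2.62 for Itgb6 and -2.04 for Itgb3bp.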

How the results depend on the processing

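Counts of genes that passed were 0 over mice, 20 in 129S1-No1, 16 in C57B6-No1, 12 for the difference between these mice, 12 for eHep against primary cells and 7 for mHep against primary cells. Quantile normalization, the percentile of detected probes, the authors' value table, the stricter filter, trended robust moderation and raising dark readings kept all 6 counts within 1.5 times. Normexp background correction gave 11 in 129S1-No1, 4 in C57B6-No1, 4 for the difference and 3 for mHep against primary cells. Without a filter on dim probes 3 passed over mice, 37 in 129S1-No1, 25 for eHep and 30 for mHep against primary cells. The mean of all probes gave 7 for eHep against primary cells. Over mice, treating the 14 arrays as samples gave 17, with slide as a term 13, with scan as a term 19, in the earlier scan by itself 5 and in the later scan by itself 31. Slide as a term gave 13, 9 and 7 within 129S1-No1, within C57B6-No1 and for their difference. The C57B6 mouse alone gave 31 and 26 for eHep and mHep against primary cells, and the cultured arrays of the earlier scan gave 25 and 20. Leaving out 1 mouse gave 2 to 4 over mice, 2 to 13 for eHep and 0 to 12 for mHep against primary cells. Leaving out 1 array gave 11 to 24 in 129S1-No1, 10 to 18 in C57B6-No1 and 7 to 13 for the difference. The counts by setting stand without the share of all genes, so they show how a count moved and not how these genes compare.

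The difference between mice turned to 0.78 (normexp) and 0.087 (mean of all probes) for Itgb6 and to 0.015 (normexp) for Lamb1. With the mean of all probes Col4a4 in 129S1-No1 turned to 0.36 and Itgav in mHep against primary cells to -0.26. The cause of these shifts was not tested. Array numbers within a mouse did not pair the arrays, with same-number correlations of -0.0789, -0.106 and -0.188 in 129S1-No1 and 0.599, -0.2 and 0.681 in C57B6-No1. The replicate block on these numbers gave 25, 18 and 17 for 129S1-No1, C57B6-No1 and their difference, and leaving the mouse pairing out gave 0 over mice. Dark readings limit what can be said of low genes, since they give bounds and not levels.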
